A study of Sus scrofa with 8 samples.

Results

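Mitochondria carry their own ribosomes, which translate the few messenger RNAs made from mitochondrial DNA, all of them for subunits of the respiratory chain and ATP synthase. The proteins of these ribosomes are encoded in the nucleus (MRPL genes for the large subunit, MRPS genes for the small subunit), made in the cytosol and imported. Elongation factors carry transfer RNAs to the ribosome and move it along the message, and the GatCAB amidotransferase, built from QRSL1, GATB and GATC, makes glutaminyl-tRNA by amidating a glutamate already bound to its transfer RNA. Fat cells use the respiratory chain to supply the energy for making and storing lipid. The genes described here are those whose symbol starts with MRPL or MRPS and a digit, together with GATB, GATC, QRSL1 and the elongation factors TUFM, TSFM and GFM1. GFM2 was on the list but had no probe set with that symbol as its only annotation. The members were represented by 84 of 23999 non-control probe sets, for 64 genes: 51 probe sets for 36 MRPL genes, 26 for 22 MRPS genes, 4 for the 3 GatCAB subunits and 3 for the 3 elongation factors. Over the whole array, 6765 genes had a probe set annotated to them alone. A further 5 probe sets annotated to MRPL55 with another gene, and 1 listed under a pair of MRPL22 entries, were left out because their annotation had several entries. By later work MRPS36 is assigned to the oxoglutarate dehydrogenase complex, and MRPL58 is a peptidyl-tRNA hydrolase built into the ribosome.

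The samples were backfat, the fat layer under the skin of the back, from pigs of the breeds KNP and YS kept under the same conditions. The source label of YS names Yorkshire, and the labels leave KNP as an abbreviation. KNP pigs were 7 months old and YS pigs 6 months old, so breed and age cannot be told apart, and 4 samples of each were hybridised singly to Affymetrix porcine expression arrays. Sex is not labelled, nor is it stated that the 8 samples are 8 animals, so SDs and p-values reflect only how these samples vary, which may be technical. Values are log2(signal + 16), each mean carries the SD of its 4 arrays, and differences are KNP minus YS.

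The arrays did not all look alike. The log2 difference between the 3' and 5' probe sets of the actin, GAPDH and elongation factor controls, a measure of how much of each transcript was copied, ran from 1.85 to 2.98 on 5 arrays. It was 4.36 on YS replicate 4, 5.77 on KNP replicate 2 and 8.21 on KNP replicate 1. The summed signal of 23 skeletal muscle genes was 106709 on KNP replicate 2 and 2777 to 6814 on the other 7 arrays. Fat cell markers were present throughout: of 13 probe sets for 10 genes, 12 were above the no-target level on all 8 arrays, and their summed signal was 131339 to 193209 in KNP and 128044 to 171458 in YS. The no-target level of an array is the signal below which 95% of its 23 controls without a pig target fell. Of the markers of other cells, 13 of 13 tested probe sets for fibroblasts and progenitors were lower in KNP (median difference -0.55, summed signal 35272 to 68094 in KNP and 38493 to 94991 in YS), and 8 of 10 for T and NK cells were lower (median -0.47). Of those 10, 2 were above the no-target level on all 8 arrays. Higher in KNP were 6 of 8 probe sets for smooth muscle and pericytes (median 0.25), 4 of 9 for macrophages and 3 of 11 for endothelium. The counts were 0 of 2 for red blood cells and 2 of 3 for skin epithelium. For skeletal muscle, 21 of 22 were higher in KNP (median 1.39). The median deviation of these probe sets from their own means over 8 arrays was 3.81 on KNP replicate 2. It was -0.90 to -0.0066 on the other KNP arrays and -0.85 to -0.39 in YS. The part of these cells in the breed differences was not tested. In bulk tissue, fewer cells of a type and less RNA per cell cannot be told apart.

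The measured differences between breeds were small for most mitochondrial translation genes and largest for GATB. Of the 84 probe sets, 78 passed the filter on low values, and all 64 genes kept at least 1. Their differences ran from -0.68 for MRPL4 to 0.92 for MRPS34 and 1.95 for GATB. Of the 78, 71 (91.0%) lay within 0.5 of 0 in either direction, against 79.0% of all probe sets tested. None passed an adjusted p of 0.05 in limma (0 of 78, where 0% of all 17999 probe sets passed), and the smallest adjusted p among them was 0.9998. An unadjusted p under 0.05 was found for 2 of 78, a GATB and an MRPL33 probe set, where 2.84% of all probe sets tested passed. The breeds did not overlap for 3 of 78 (GATB, MRPL33 and MRPS22), against 1.96% of all. GATB alone had breed means at least 1 apart on this log2 scale (1 of 78, against 3.67% of all). GATB was chosen with its difference known. Without it, 1 of 77 had an unadjusted p under 0.05 in limma, 2 did not overlap and 0 were that far apart. The mean was higher in KNP for 46 of 78, which is 59.0%, where the share over all probe sets tested was 49.9%. The median difference was 0.046, against -0.0010 over all probe sets, and without GATB it was 0.045 over 77 probe sets.

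**Figure D1:**
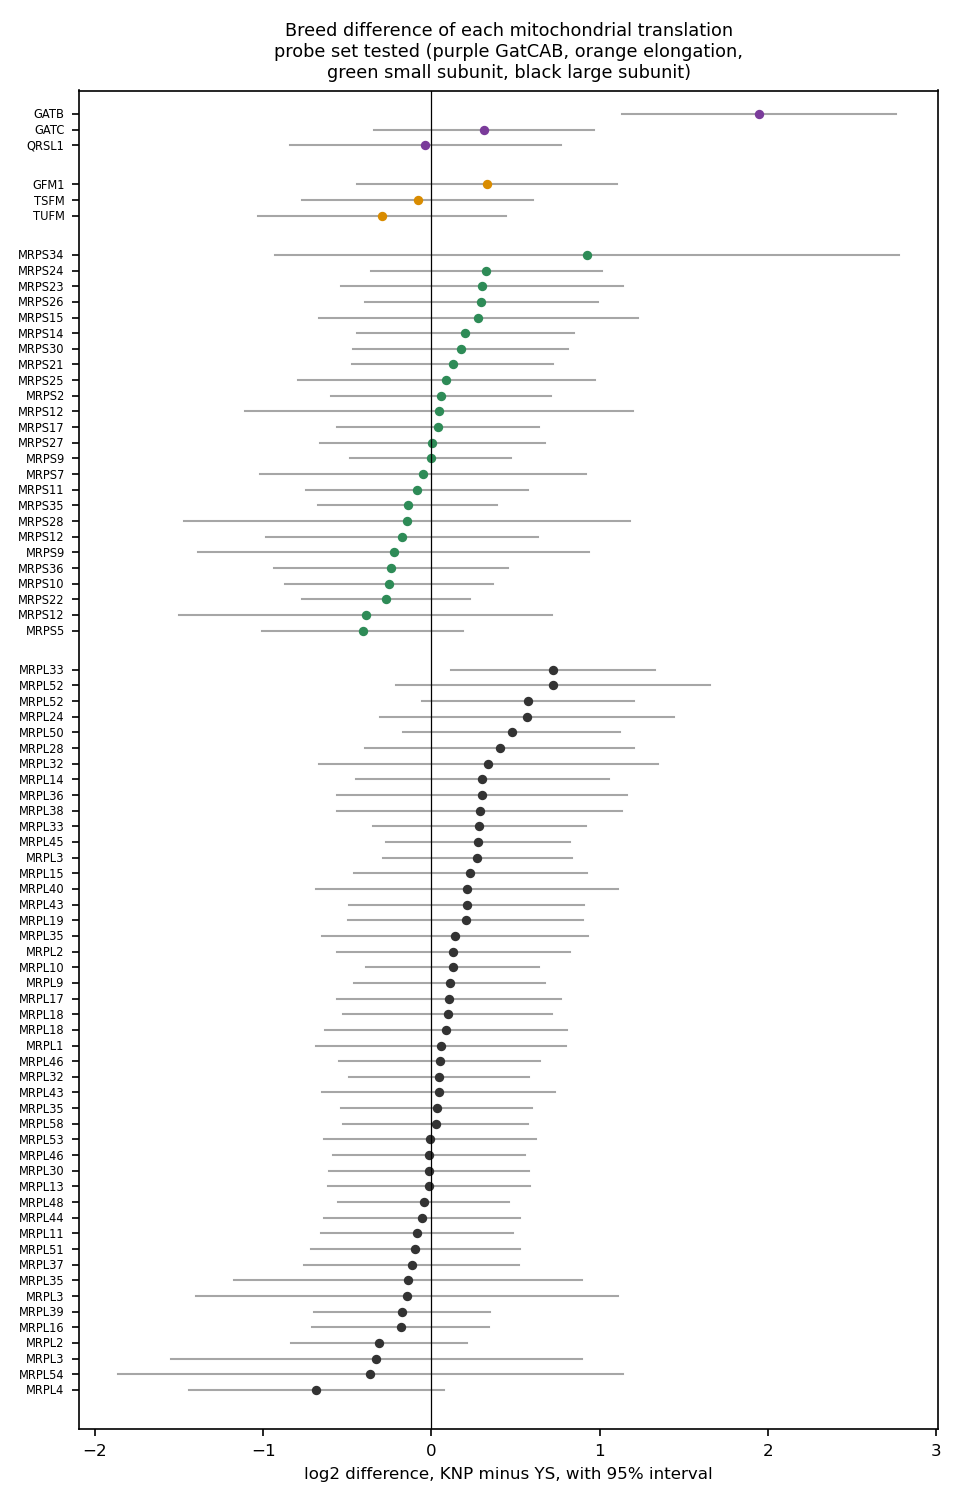
Each point is the log2 difference between breed means (KNP minus YS) of 1 of the 78 probe sets tested, with its 95% interval from limma as a line, sorted within role; a gene with several probe sets has several rows. GATB stands at 1.95, MRPS34 is the next largest at 0.92 with a wide interval, and most points lie within 0.5 of 0.

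The 95% interval of the difference lay inside a 2-fold change in both directions for 49 of 78 probe sets (62.8%), compared with 41.1% of all probe sets tested. The intervals of the other 29 reached beyond 2-fold in at least 1 direction on this scale. For GATB, chosen with its difference known, the interval of 1.13 to 2.76 is a description, not a test. Its signal exceeded the no-target level on only 1 YS array. The list's small tilt towards KNP depended on single arrays. Its median was -0.022 without KNP replicate 1 and -0.035 without YS replicate 4, and -0.023 when arrays were weighted by their fit to the model. Without the 3 arrays with the widest 3'/5' gap it was -0.14, with 22 of 78 probe sets higher in KNP, while over all probe sets the share was 54.2%.

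GatCAB, the transfer RNA amidotransferase, was measured by 4 probe sets. GATB, the subunit that binds the misacylated transfer RNA, was at 6.97, 7.27, 7.20 and 7.56 in KNP replicates 1 to 4. In YS it was at 4.65, 6.25, 4.96 and 5.35. The breeds did not overlap, and YS replicate 2 was the nearest of its breed to the KNP values. The means were 7.25 ± 0.24 and 5.30 ± 0.69 (SD, n = 4), and the difference on this scale was 1.95 ± 0.36 (SE). As plain signal GATB was at 109.2, 138.7, 131.0 and 172.3 in KNP replicates 1 to 4. The no-target levels there were lower on each, at 89.5, 115.4, 76.1 and 93.3. In YS GATB exceeded the level, 40.6, only on replicate 2, at 60.1. On YS replicates 1, 3 and 4 it was at 9.13, 15.0 and 24.8, where the no-target levels were 78.5, 70.5 and 160.8, so no fold change is given.

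GATB was singled out because its difference in these arrays was already known to be large, and its values are a description, not a test. Its mean over 8 arrays was 6.28, close to the lowest mean kept by the filter, 6.13, which it passed through its KNP values. With 3 of 4 YS signals below the no-target level, the size of the difference moved with the constant added before taking logs: 2.61 with 1, 1.95 with 16 and 1.17 with 64. It stayed between 1.73 and 2.26 with any 1 array left out, and it was 2.09 without the 3 arrays with the widest 3'/5' gap. Its adjusted p in limma was 0.9998, and over the alternatives the smallest was 0.470.

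The partners of GATB overlapped between the breeds over all 8 arrays. GATC, the small subunit that holds the complex together, was at 9.76, 9.87, 9.63 and 9.53 in KNP and at 9.80, 9.23, 9.74 and 8.77 in YS, and the breeds overlapped. Its difference was 0.31 ± 0.29 (SE), with a 95% interval from -0.34 to 0.96. QRSL1, which encodes the catalytic subunit that releases ammonia from glutamine, was at 9.54, 9.32, 8.39 and 8.08 in KNP. In YS it was at 8.74, 8.82, 8.89 and 9.03. The KNP arrays spanned the whole YS range, with the 2 arrays of largest 3'/5' difference at the top, and the difference was -0.037 ± 0.36 (SE). The part of RNA quality in this order was not tested. Another QRSL1 probe set was above the no-target level on none of the 8 arrays and did not pass the filter. Without the 3 arrays with the widest 3'/5' gap, GATC differed by -0.013 and QRSL1 by -0.58 ± 0.24 (SE, unadjusted p of 0.0556 and adjusted p of 0.603 in limma). That setting was chosen after seeing the data and left few arrays in each breed. Whether GATB differs from its partners was not tested.

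**Figure D2:**
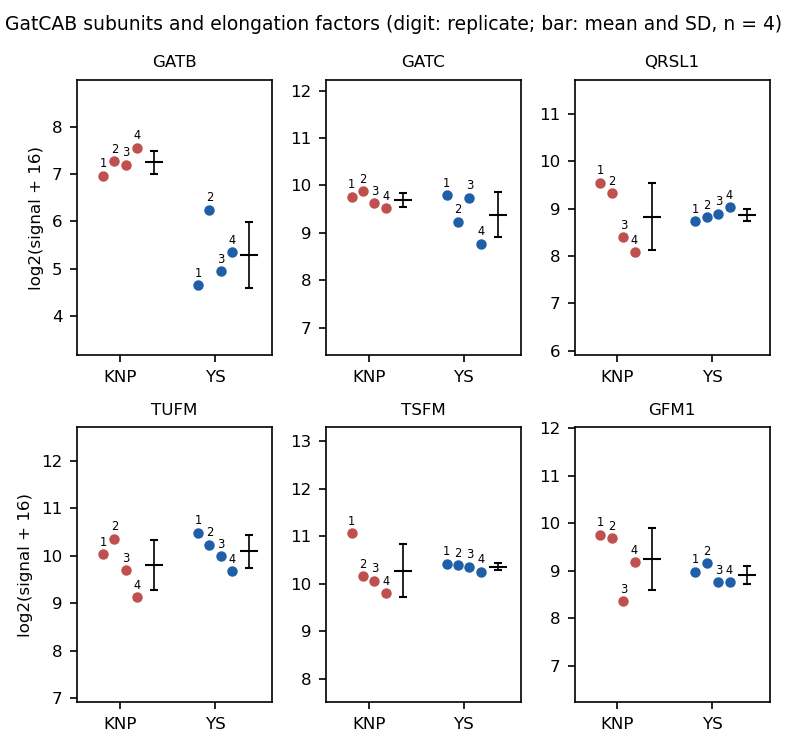
Log2(signal + 16) on every array for the GatCAB subunits GATB, GATC and QRSL1 and the elongation factors TUFM, TSFM and GFM1, with KNP in red, YS in blue, the replicate number beside each point, and the mean and SD of 4 arrays as a black bar; each panel spans the same height in log2 units. Only for GATB do the breeds not overlap.

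Over all 8 arrays the elongation factors overlapped between breeds. TUFM, which delivers aminoacyl-tRNA to the ribosome, was at 10.02, 10.36, 9.69 and 9.13 in KNP and at 10.48, 10.23, 9.99 and 9.68 in YS, a difference of -0.29 ± 0.33 (SE). Without the 3 arrays with the widest 3'/5' gap its difference was -0.82 ± 0.30 (SE, unadjusted p of 0.0346 and adjusted p of 0.569 in limma). That setting was chosen after seeing the data and left few arrays in each breed. TSFM, which recharges TUFM with GTP, was at 11.07, 10.16, 10.06 and 9.80 in KNP replicates 1 to 4, highest on the array of largest 3'/5' difference. Its YS values lay close together, from 10.25 to 10.42, and the difference was -0.080 ± 0.30 (SE), or -0.45 ± 0.24 (SE) without those 3 arrays. GFM1, the factor that moves the ribosome by a codon, was at 9.76, 9.69, 8.36 and 9.18 in KNP and at 8.98, 9.16, 8.76 and 8.77 in YS. Its difference was 0.33 ± 0.34 (SE), and it was -0.20 without the 3 arrays with the widest 3'/5' gap. All 3 were above the no-target level on all 8 arrays, and none passed over 8 arrays (adjusted p = 0.9998 in limma for each).

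The large subunit, where peptide bonds are formed, had 47 probe sets tested, 30 higher in KNP and 17 lower, with a median difference of 0.084. MRPL33, a small protein also found in bacterial ribosomes, came first by p among the ribosomal genes. One of its probe sets was at 9.12, 9.56, 9.83 and 9.86 in KNP and at 8.68, 9.06, 8.62 and 9.12 in YS. All KNP values exceeded all YS values, with KNP replicate 1 and YS replicate 4 next to each other. The difference was 0.72 ± 0.27 (SE), a 1.65-fold higher mean, with an unadjusted p of 0.0240 and an adjusted p of 0.9998 in limma. The other MRPL33 probe set had the same sign but overlapping values, 9.95 ± 0.34 against 9.67 ± 0.33 (SD, n = 4).

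MRPL52, a protein that bacterial ribosomes lack, had 3 probe sets, all with a higher mean in KNP. The first was at 11.17, 11.48, 10.65 and 10.50 in KNP and at 10.44, 10.27, 10.52 and 10.28 in YS. KNP replicates 1 and 2, the arrays of largest 3'/5' difference, were above the rest, and KNP replicate 4 lay within the YS range. KNP replicate 2 also had the high skeletal muscle signal, and the part of RNA quality or muscle was not tested. The difference was 0.57 ± 0.28 (SE), that of the second probe set 0.72 ± 0.41 (SE), and the third, at 0.53, did not pass the filter. MRPL50, also absent from bacteria, was at 8.11 ± 0.36 against 7.63 ± 0.34. MRPL24 was at 8.30 ± 0.58 against 7.73 ± 0.56 and MRPL45, which anchors the ribosome to the inner membrane, at 10.31 ± 0.32 against 10.04 ± 0.072.

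In the other direction MRPL4, a protein that lines the exit tunnel for the new peptide, had the lowest difference of all members. It was at 7.63, 6.71, 7.62 and 8.06 in KNP and at 8.61, 8.27, 8.02 and 7.85 in YS. Only KNP replicate 4 reached into the YS range, and the difference was -0.68 ± 0.34 (SE, unadjusted p of 0.0723 and adjusted p of 0.9998 in limma). For MRPL2, which sits at the centre where peptide bonds form, a probe set was at 8.88 ± 0.25 against 9.20 ± 0.091, and another had the opposite sign, 9.63 ± 0.34 against 9.49 ± 0.45.

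**Figure D3:**
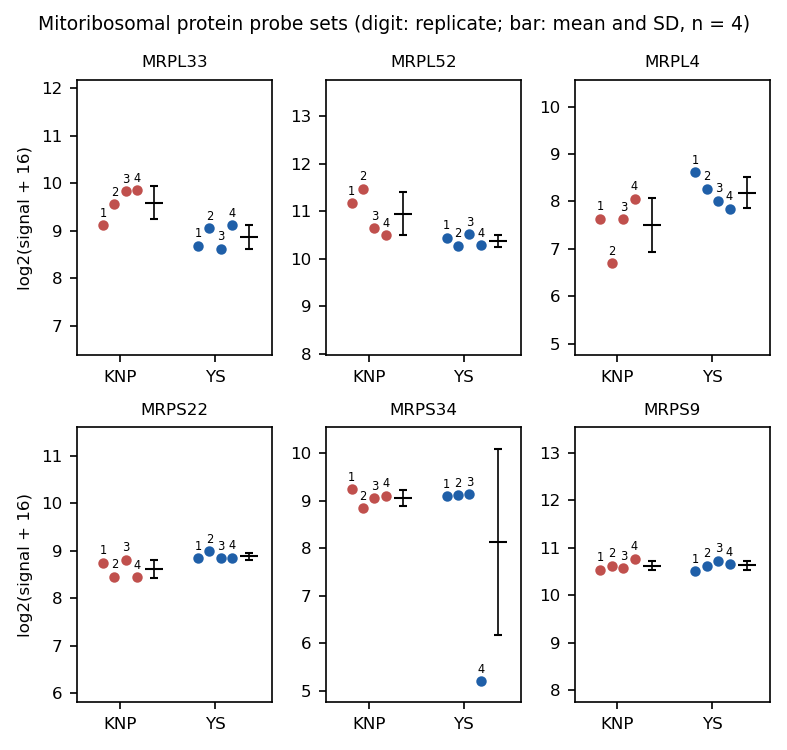
Log2(signal + 16) on every array for 6 mitoribosomal probe sets, with KNP in red, YS in blue, the replicate number beside each point, and the mean and SD of 4 arrays as a black bar; each panel spans the same height in log2 units. MRPL33 lies wholly higher and MRPS22 wholly lower in KNP, MRPS34 is alike on 7 arrays and far lower on YS replicate 4, and the MRPS9 probe set shown, the steadier of 2, differs little between any arrays.

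The small subunit, which reads the message, had 25 probe sets tested, split 13 higher and 12 lower in KNP with a median of 0.0060. MRPS22, a protein specific to mitochondrial ribosomes, was at 8.74, 8.45, 8.81 and 8.44 in KNP and at 8.84, 8.98, 8.85 and 8.85 in YS. Every KNP value was below every YS value, with KNP replicate 3 next to YS replicate 1, and the difference was -0.27 ± 0.22 (SE). MRPS5 was at 8.14 ± 0.37 against 8.55 ± 0.19 (SD, n = 4), MRPS10 at 10.33 ± 0.33 against 10.58 ± 0.30 and MRPS36 at 7.54 ± 0.27 against 7.78 ± 0.50. MRPS12, a protein of the centre that checks codons, had 3 probe sets with differences from -0.39 to 0.044. None of these probe sets had an unadjusted p under 0.05 in limma.

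MRPS34, another protein specific to mitochondrial ribosomes, owed its large difference to YS replicate 4. It was at 9.25, 8.84, 9.06 and 9.11 in KNP and at 9.10, 9.12, 9.15 and 5.20 in YS. The other 7 arrays lay between 8.84 and 9.25, and on YS replicate 4 the signal was 20.8, below the no-target level of 160.8 on that array. Its difference was 0.92 ± 0.82 (SE) in 8 arrays and -0.055 without that array.

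Between arrays of the same breed most of these genes varied little. The SD within breeds, pooled over KNP and YS, had a median of 0.38 over the 78 probe sets and of 0.54 over all probe sets tested, and 59 of 78 (75.6%) were below the latter. Of the members, 64 of 78 (82.1%) were above the no-target level on all 8 arrays, compared with 60.2% of all tested, and the part of signal in the smaller spread was not tested. The steadiest were a probe set of MRPS9 (10.63 ± 0.10 in KNP and 10.63 ± 0.088 in YS), MRPS22 (8.61 ± 0.19 and 8.88 ± 0.068), MRPL48 (9.86 ± 0.18 and 9.91 ± 0.15) and MRPL10, part of the stalk base (10.16 ± 0.20 and 10.04 ± 0.15; SD, n = 4 each). The other MRPS9 probe set was among the variable ones in KNP, at 7.66 ± 1.17 against 7.88 ± 0.057 in YS, and ran from 6.04 to 8.67 over the KNP arrays. The most variable, besides MRPS34, were MRPL54 (7.43 ± 1.38 and 7.79 ± 0.73), MRPS28 (8.65 ± 1.27 and 8.79 ± 0.48) and a probe set of MRPL3 (8.48 ± 1.16 and 8.62 ± 0.52). MRPS28 was at 10.26 on KNP replicate 1 and 7.16 on KNP replicate 3, and MRPL54 was at 8.67 on KNP replicate 3 and 5.45 on KNP replicate 2.

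**Figure D4:**
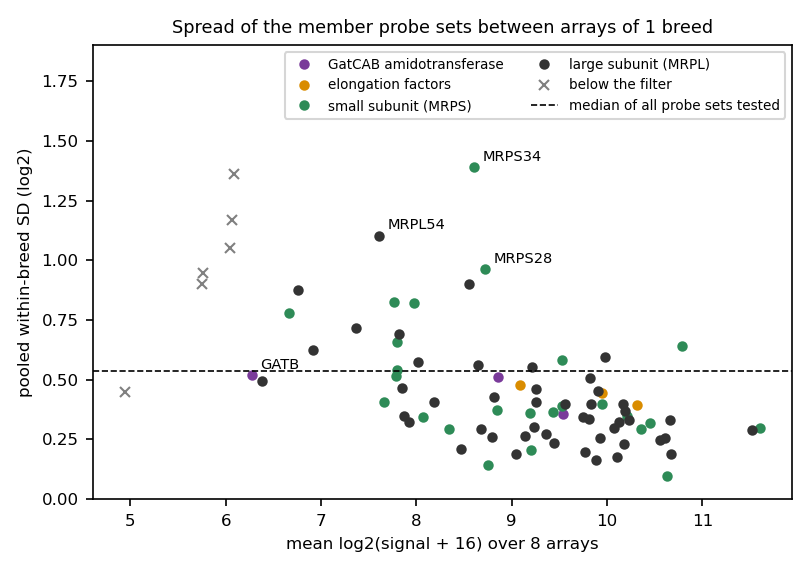
Pooled within-breed SD of each of the 84 probe sets against its mean log2(signal + 16) over 8 arrays, coloured by role, with crosses for the 6 that did not pass the filter and a dashed line at the median SD of all probe sets tested, 0.54. Most members lie below the line; MRPS34, MRPL54 and MRPS28 lie far above it, and GATB, at 0.52, lies just under it.

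What variation the genes shared ran between arrays more than between breeds. For each probe set the deviation from its own mean over 8 arrays was taken, and the median over the 78 was read on each array. It was highest on KNP replicate 1, at 0.30, and lowest on YS replicate 4, at -0.27, while on KNP replicates 2 to 4 it was 0.078, -0.016 and -0.11. On YS replicates 1 to 3 it was 0.12, 0.020 and 0.031. The breed means of these medians, 0.064 and -0.023, differed by less than their SDs of 0.18 and 0.17 (n = 4).

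All probe sets tested had medians of 0.14 on KNP replicate 1 and 0.21 on YS replicate 4, both above 0, and between -0.034 and 0.023 on the other 6 arrays. So on YS replicate 4 mitochondrial translation genes lay low while the general median lay high. Lists of related genes went both ways on that array. Their medians ran from -0.38 for the elongation factors of the cytosol to 0.38 for transcription and replication of mitochondrial DNA. Its no-target level, 160.8, was the highest of the 8. Of the 78 probe sets, 26 (33.3%) had their highest value on KNP replicate 1, compared with 20.1% of all probe sets, and 25 (32.1%) had their lowest on YS replicate 4, compared with 13.6%. Both arrays were among the 3 with large 3'/5' differences, and both had low medians for the fat cell markers, at -0.42 and -0.56. The summed signal of those markers was the highest of the 8 arrays on KNP replicate 1, at 193209, and the lowest on YS replicate 4, at 128044. On KNP replicate 2, where the median of the muscle genes was 3.81 above their means, that of the mitochondrial translation genes was 0.078. The part of RNA quality and cell make-up in these shifts was not tested.

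**Figure D5:**
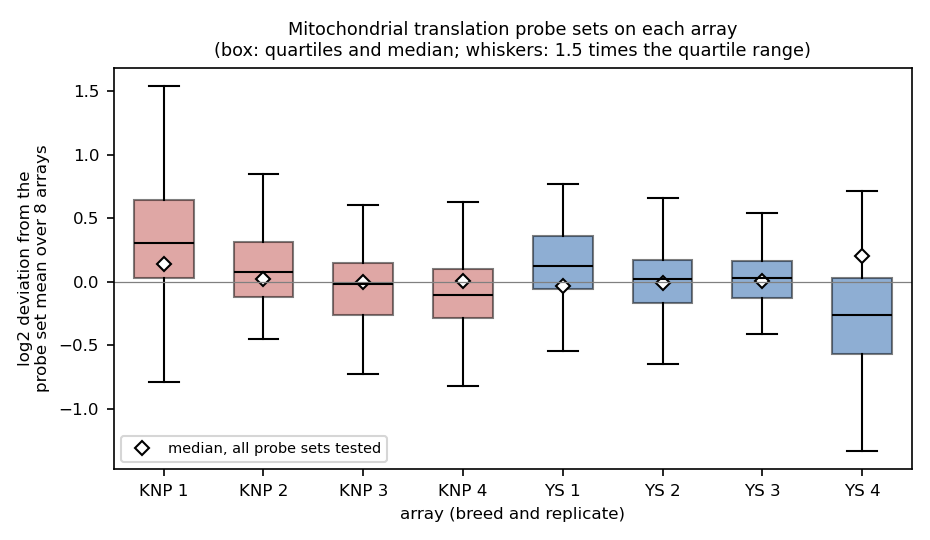
Deviation of the 78 probe sets tested from their own means over 8 arrays, as a box per array (KNP red, YS blue; line: median, box: quartiles, whiskers: up to 1.5 times the quartile range, points beyond not drawn), with white diamonds for the median of all probe sets tested. The box of KNP replicate 1 lies high, with a median of 0.30, and that of YS replicate 4 lies low, at -0.27, below its diamond at 0.21.

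Where a gene had several probe sets, the sign of the difference agreed for some genes and not for others. There were 15 such genes, and for 7 of them probe sets of both signs were found, 5 when only tested probe sets were counted. The same share over all genes with several probe sets was not taken. MRPL15 had a tested probe set at 10.28 ± 0.14 in KNP and 10.05 ± 0.55 in YS, and a dim one, above the no-target level on 2 of 8 arrays, at 5.51 ± 0.99 against 6.00 ± 0.79. For MRPL3, part of the core of the large subunit, 1 of 3 was at 10.69 ± 0.28 against 10.41 ± 0.21 and another, above the no-target level on 5 of 8 arrays, at 6.60 ± 1.03 against 6.92 ± 0.68. The 3 MRPL35 probe sets ran from -0.14 to 0.14, all within their SEs. Several probe sets agreed for MRPL18, MRPL32, MRPL33, MRPL38, MRPL43, MRPL52, MRPS2 and MRPS9.

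The rest of the pathway was read from lists of genes with known parts in it. Together, and without the members, they held 69 tested probe sets for 53 genes, of which 34 were higher and 35 lower in KNP, with a median difference of -0.0064. None passed (0 of 69 in limma). An unadjusted p under 0.05 was found for 1 of 69, against 2.84% of all probe sets tested, and 0 of 69 had breeds that did not overlap, against 1.96%. That gene was TRMT10C, a subunit of the enzyme that trims the 5' end of mitochondrial transfer RNAs, with KNP at 6.95 ± 1.05 and YS at 8.33 ± 0.17 (SD, n = 4). The difference was -1.38 ± 0.48 (SE, adjusted p = 0.9998 in limma), and 2 arrays of KNP and 4 of YS exceeded the no-target level. In the same list of mitochondrial RNA processing, 12 of 19 probe sets were higher in KNP, and ELAC2, which trims the 3' end of transfer RNAs, was at 7.76 ± 0.25 against 7.15 ± 1.07 in a probe set and at 8.97 ± 0.51 against 9.19 ± 0.35 in another.

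Ribosome assembly and rRNA modification had 10 of 22 probe sets higher in KNP. GTPBP10, a GTPase of large subunit assembly, was at 6.38 ± 1.17 in KNP and 7.47 ± 0.24 in YS and exceeded the no-target level on 1 array of KNP, while its other probe sets differed by -0.15 and 0.27. The RNA helicase DHX30 was at 5.77 ± 0.85 against 6.62 ± 0.95. Mitochondrial aminoacyl-tRNA synthetases were higher for 6 of 8 probe sets, with FARS2, for phenylalanine, at 9.05 ± 0.67 against 8.66 ± 0.45 and GARS, which serves cytosol and mitochondria, at 8.14 ± 0.41 against 8.27 ± 0.30. Initiation, termination and recycling had 3 of 7 higher, with the recycling factor MRRF at 9.32 ± 0.30 against 9.13 ± 0.14 and TACO1, an activator of COX1 translation, at 7.84 ± 0.25 against 7.71 ± 0.17.

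Ribosomal proteins of mitochondria with other symbols had 2 of 6 probe sets higher, among them GADD45GIP1, a large subunit protein, at 7.52 ± 0.28 against 6.75 ± 0.64. Transcription and replication of mitochondrial DNA had 1 of 7 higher. TFAM, which packages and transcribes mitochondrial DNA, was at 5.85 ± 1.82 against 6.61 ± 1.40 and exceeded the no-target level on 2 arrays of each breed, while its other 3 probe sets differed by -0.27 to -0.052. The co-activator PPRC1 was at 7.97 ± 0.66 against 7.69 ± 0.48. Of the elongation factors of the cytosol, 3 of 6 probe sets were higher, with EEF1D at 13.09 ± 0.41 against 12.84 ± 0.21 and an EEF1A1 probe set at 8.90 ± 0.41 against 8.72 ± 0.21 (SD, n = 4). The other 2 EEF1A1 probe sets had the opposite sign, at -0.21 and -0.093. No probe set had a listed symbol of a protein encoded by mitochondrial DNA as its only annotation, so the products of the mitochondrial ribosome were not analysed here.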

How the data were processed

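The authors deposited linear intensity values, 1 for each of 24123 probe sets on every array. Each array's mean, trimmed by 2% at either end, was 500.1, which shows a common scaling. No source used here names the software that summarised the probes, and no detection calls came with the values. RNA was labelled with biotin, per the labels. That scaling was kept. After log2(signal + 16), 124 control probe sets were removed, then the 25% of the remainder with the lowest mean over 8 arrays, which left 17999. A linear model with breed as its only term was fitted with limma 3.58.1 under R 4.3.3 and moderated with eBayes. Tests were two-sided, adjusted by the Benjamini-Hochberg method across all 17999, with 0.05 as threshold, and the fit was tested on simulated data. Names come from the platform annotation, which can be old. By Entrez identifier, 83 of the 84 member probe sets matched RefSeq's pig genes, with 0 changed symbols. No coordinates are given.

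Members, gene lists and alternatives were chosen with earlier results of these data known. The genes named are GatCAB and the elongation factors, the 6 ribosomal probe sets per direction with the smallest p, up to 6 genes whose probe sets differed in sign, the 4 largest and 4 smallest SDs, probe sets with 1 array far from the others, and 2 per other list. Alternatives covered the filter (none, or 50%), normalization (quantile, or centring on the median), the added constant (1 or 64), a trended robust variance with statmod 1.5.0, weights for arrays, a replicate block, a covariate for the 3'/5' difference, a single probe set per gene, and leaving out each array. Leaving out those 3 arrays whose 3'/5' difference was largest was added after seeing the data. The number of arrays limits the precision.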

Additional observations from a re-analysis of the deposited data

Results flagged for a closer look

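In 11 of 168 groups of 4 arrays (84 probe sets in each breed), 1 array lay so far from the other 3 that its gap exceeded Dixon's 95% critical value, and chance gives about 1 in 20 such groups. Of the 11, 4 were on KNP replicate 1, 3 on YS replicate 4, 2 on KNP replicate 4 and 2 on YS replicate 2. MRPS21 was at 10.97 on YS replicate 4, where the other YS arrays were at 11.70 to 11.76. MRPS34 was at 5.20 on YS replicate 4, where the other YS arrays were at 9.10 to 9.15. MRPS22 was at 8.98 on YS replicate 2, where the other YS arrays were at 8.84 to 8.85. MRPL13 was at 9.50 on YS replicate 4, where the other YS arrays were at 10.23 to 10.34. MRPL1 was at 10.87 on KNP replicate 1, where the other KNP arrays were at 9.50 to 9.72. MRPL32 was at 8.13 on KNP replicate 1, where the other KNP arrays were at 8.58 to 8.66. MRPL51 was at 9.64 on KNP replicate 4, where the other KNP arrays were at 10.21 to 10.23. MRPL15 was at 10.49 on KNP replicate 1, where the other KNP arrays were at 10.18 to 10.22. MRPL52 was at 8.23 on KNP replicate 1, where the other KNP arrays were at 6.86 to 7.01. MRPS27 was at 8.11 on KNP replicate 4, where the other KNP arrays were at 8.98 to 9.14. MRPL35 was at 5.73 on YS replicate 2, where the other YS arrays were at 6.46 to 6.57. For MRPL15, MRPL32, MRPL35 and MRPL52, which have several probe sets, the value is that of a single probe set.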

How the results depend on the processing

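No member probe set passed an adjusted p of 0.05 in limma in any of 20 settings, against 2 at an unadjusted p under 0.05. That count of 2 (2.84% of all probe sets) became 1 with the 50% filter (3.10% of all), with median centring (2.66%) and with 1 probe set per gene (2.84% of all probe sets). With median centring the MRPL33 probe set was at an unadjusted p of 0.0569 in limma. The count was 3 with quantile normalization (3.24%). It was 4 with array weights (5.42%), and it ran from 1 to 3 with each array left out (2.35% to 4.91%). It was 6 without those 3 arrays whose 3'/5' difference was largest (8.42%): GATB and probe sets of MRPL33 and MRPS9 higher in KNP, and TUFM, MRPS7 and a probe set of MRPS12 lower. The median difference ran from -0.035 to 0.16 with each array left out, and the count of higher KNP means, 46, from 35 to 56. Without the 3 arrays, a setting chosen after seeing the data, these were -0.14 and 22. With a replicate block the median stayed at 0.046 and the unadjusted count at 2. Same-numbered arrays had correlations of deviations of -0.175, 0.022, 0.125 and -0.188. The largest between a KNP and a YS array, 0.397, was for KNP replicate 1 and YS replicate 4, both with wide 3'/5' gaps. Whether the numbers pair the samples cannot be told from these values. Of 39 named probe sets, 15 never changed sign and 0 passed the threshold in a setting. Signs turned with quantile normalization for MRPL13 0.0068, and with median centring for MRPS9 0.00092. They turned with array weights for a probe set of MRPL2 -0.12, MRPS9 0.023, MRPS21 -0.018, MRPL1 -0.13, MRPS27 -0.12. With the 3'/5' covariate they turned for a probe set of MRPS12 -0.30, a probe set of MRPL35 -0.081, MRPS9 0.015, a probe set of MRPL3 0.29, MRPL1 -0.15, MRPS27 -0.12. Without the 3 arrays they turned for GATC -0.013, GFM1 -0.20, MRPL15 -0.11, a probe set of MRPL2 -0.24, a probe set of MRPS12 -0.34, a probe set of MRPL35 -0.26, MRPS9 0.046, MRPL10 -0.014, a probe set of MRPL3 0.61, MRPL54 0.18, MRPS34 -0.034, MRPS21 -0.033, MRPL1 -0.34, MRPS27 -0.28. With each array left out, differences that turned ran over these ranges: a probe set of MRPS12 -0.35 to 0.37, a probe set of MRPL35 -0.068 to 0.38, MRPS9 -0.053 to 0.027, a probe set of MRPL3 -0.51 to 0.27, MRPL1 -0.26 to 0.20, MRPS27 -0.094 to 0.25, a probe set of MRPL2 -0.038 to 0.33, MRPL54 -0.78 to 0.30, MRPL32 -0.037 to 0.16, QRSL1 -0.27 to 0.22, another of MRPS12 -0.71 to 0.022, another of MRPL3 -0.60 to 0.16, MRPS28 -0.68 to 0.35, MRPL13 -0.21 to 0.071, TSFM -0.35 to 0.077, another of MRPL35 -0.42 to 0.23, MRPL48 -0.12 to 0.014, MRPL51 -0.21 to 0.066, MRPL15 -0.032 to 0.39, MRPS34 -0.055 to 1.26, MRPS21 -0.066 to 0.20. The cause was not tested. GATB did not pass the 50% filter and has no value there. The promoter motif count was not run, since no promoter sequences were used here. Signals below the no-target level limit GATB in YS and the dim probe sets.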
